A study of Bos taurus with 90 samples.

Results

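The microRNAs (miRNAs) miR-193b, miR-193a-3p and miR-365-3p were followed across 5 tissues of lactating dairy cows. They are 3 of the 388 miRNAs listed in any of the tissues, and 3 of the 289 listed in all 5. They were chosen by their CPM levels in rumen and liver, which were high, so the levels by tissue are given as a description without a test. Small RNA libraries had been made from the liver, mammary gland, rumen epithelium, duodenum and jejunum of 18 mid-lactation Chinese Holstein cows. The cows had received alfalfa hay, corn stover or rice straw as forage, with 6 cows on each diet, which gave 18 libraries per tissue and 90 in all. No group without forage was among them, so diets were compared with each other. Levels are in CPM, the reads of a miRNA as a share of the reads mapped to all annotated miRNAs of that library, scaled to a common total. A CPM value is therefore a share of the miRNA reads and not an amount per cell. In pieces of whole tissue, fewer cells of a type and less RNA per cell cannot be told apart.

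A miRNA binds messenger RNAs mainly through its seed, a short stretch near its 5′ end, and lowers their translation or stability. miR-193a-3p and miR-193b share a seed and so can bind overlapping sets of targets, whereas miR-365-3p has a different seed. In mammals miR-193b and a copy of miR-365 are encoded side by side and can be cut from a shared transcript, and this cluster is best known for its part in brown fat cell differentiation. In the bovine RefSeq annotation (ARS-UCD2.0) the hairpin genes MIR193B and MIR365-1 were on the same chromosome with 0 other genes starting between them. MIR193A and MIR365-2 were also on 1 chromosome, with 1 gene starting between them. Mature miR-365-3p can come from either miR-365 hairpin, so its level does not tell which gene it was cut from. The authors' alignment allowed mismatches and several mapping positions per read, so reads of the similar miR-193a-3p and miR-193b could have been shared to an unknown extent.

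Mapped miRNA reads per library ranged from 937556 to 15621501, with a median of 5778304.5, so that 3 reads were worth between 0.192 and 3.20 CPM. The tissues carried their defining miRNAs. miR-205, a marker of stratified epithelium, had a median of 32788 CPM in rumen and of 1.74 CPM in duodenum. The hepatocyte miRNA miR-122 ranged from 8671 to 12721 CPM in liver and was at 48.5 CPM at most in mammary gland. The summed level of the intestinal miRNAs miR-192, miR-194 and miR-215 had a median of 330522 CPM in duodenum and 231594 CPM in jejunum, but also of 141879 CPM in liver, where miR-192 is abundant as well. In mammary gland the summed miR-200 family, which marks epithelium, had a median of 42444 CPM, the highest of the 5 tissues. The liver library of alfalfa hay replicate 2 stood apart with 1525 CPM of miR-205, against 0 to 12.997 CPM in the other 17 liver libraries. Its miR-193b (1771 CPM), miR-193a-3p (193.4 CPM) and miR-365-3p (386 CPM) lay within the range of the others. In mammary gland 4 libraries (rice straw replicates 1, 4 and 5 and alfalfa hay replicate 1) had 937556 to 2624975 reads, while the other 14 had at least 4421565. In these 4 the summed leucocyte miRNAs were at 573 to 2018 CPM, below the 3106 to 9370 CPM of the others. The leucocyte sum is mostly miR-142-5p, which averaged 4044 CPM over the 18 mammary libraries, against 280 CPM for miR-150, the next. It does not show how the other leucocyte miRNAs stood. The summed red blood cell miRNAs of the 4 were at 3251 to 4241 CPM, above the 1070 to 2938 CPM of the others. That sum is mostly miR-486, which averaged 1932 CPM over the 18 mammary libraries, against 282 CPM for miR-451 and 13.8 CPM for miR-144. It does not show whether miR-451 and miR-144 were higher too. The lowest mammary miR-144 value, 0.655 CPM, was 1 read in rice straw replicate 5. The summed miR-200 family was also lower in the 4 shallow libraries, at 10598 to 31854 CPM, against 32549 to 67448 CPM in the other 14.

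miR-193b was abundant in rumen and liver and scarce in the other 3 tissues. In rumen it ranged from 961 to 2380 CPM with a median of 1523 CPM (mean 1668 ± 395, SD, n = 18), which placed it 59th of the 340 miRNAs listed there. In liver it ranged from 717 to 2208 CPM with a median of 1501 CPM (1535 ± 381, n = 18), and it was 44th of 330. The rumen and liver ranges overlapped almost fully, and the means differed 1.09-fold. Which tissue was higher depended on scaling, since TMM scaling gave 1436 in rumen and 1785 in liver and upper-quartile scaling gave 1384 and 2084. The other tissues lay far below: jejunum ranged from 27.1 to 54.4 CPM (35.5 ± 7.23), mammary gland from 7.86 to 65.8 CPM (31.4 ± 12.4) and duodenum from 20.9 to 46.8 CPM (30.9 ± 7.09). These 3 tissues overlapped one another, with ratios of neighbouring means of 1.13 and 1.02. None of their libraries reached the lowest rumen or liver library. Such a gap between tissues was not particular to miR-193b: miR-378 was at 36043 CPM or more in rumen and at 14531 CPM or less in duodenum. For none of the 3 miRNAs is the share of all miRNAs that separate tissues as fully given here. The liver mean was 43.3-fold that of jejunum, the next tissue in the order. The lowest level, in a shallow mammary library, rested on 12 reads, with an exact 95% interval of 4.06 to 13.7 CPM that covers counting error only.

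miR-365-3p followed the same order of tissues at its upper end, but at a lower level than miR-193b. It ranged from 263 to 562 CPM in rumen (median 379, mean 396 ± 88.5, n = 18) and from 243 to 560 CPM in liver (median 341, mean 355 ± 75.6, n = 18). Rumen and liver overlapped, with a ratio of means of 1.12 that turned under TMM scaling (336 in rumen, 414 in liver) and upper-quartile scaling (328 and 482). Mammary gland came next, at 9.07 to 78.5 CPM (43.5 ± 19.4), 8.17-fold below liver with no overlap. Duodenum (17.6 to 39.8 CPM, 27.6 ± 6.48) and jejunum (17.3 to 35.3 CPM, 26.2 ± 5.06) were lowest and overlapped each other and mammary gland. By rank miR-365-3p was 102nd of 340 in rumen and 88th of 330 in liver.

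miR-193a-3p had another order, with rumen first, mammary gland and liver together, and the gut last. In rumen it ranged from 189 to 3371 CPM with a median of 1170 CPM (1226 ± 740, n = 18). Mammary gland ranged from 36.3 to 832 CPM (median 263, mean 286 ± 177) and liver from 91.8 to 502 CPM (median 209, mean 240.3 ± 118). Rumen was 4.28-fold mammary gland and 5.10-fold liver by the means. The ranges still overlapped, with 13 of 18 rumen libraries above every mammary library and 16 of 18 above every liver library. Mammary gland and liver did not separate, at a ratio of means of 1.19. Jejunum (16.7 to 44.99 CPM, 28.6 ± 7.33) and duodenum (16.4 to 45.1 CPM, 27.1 ± 7.83) did not differ beyond their spread either, and both lay wholly below liver, at 8.39-fold between liver and jejunum.

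**Figure D1:**
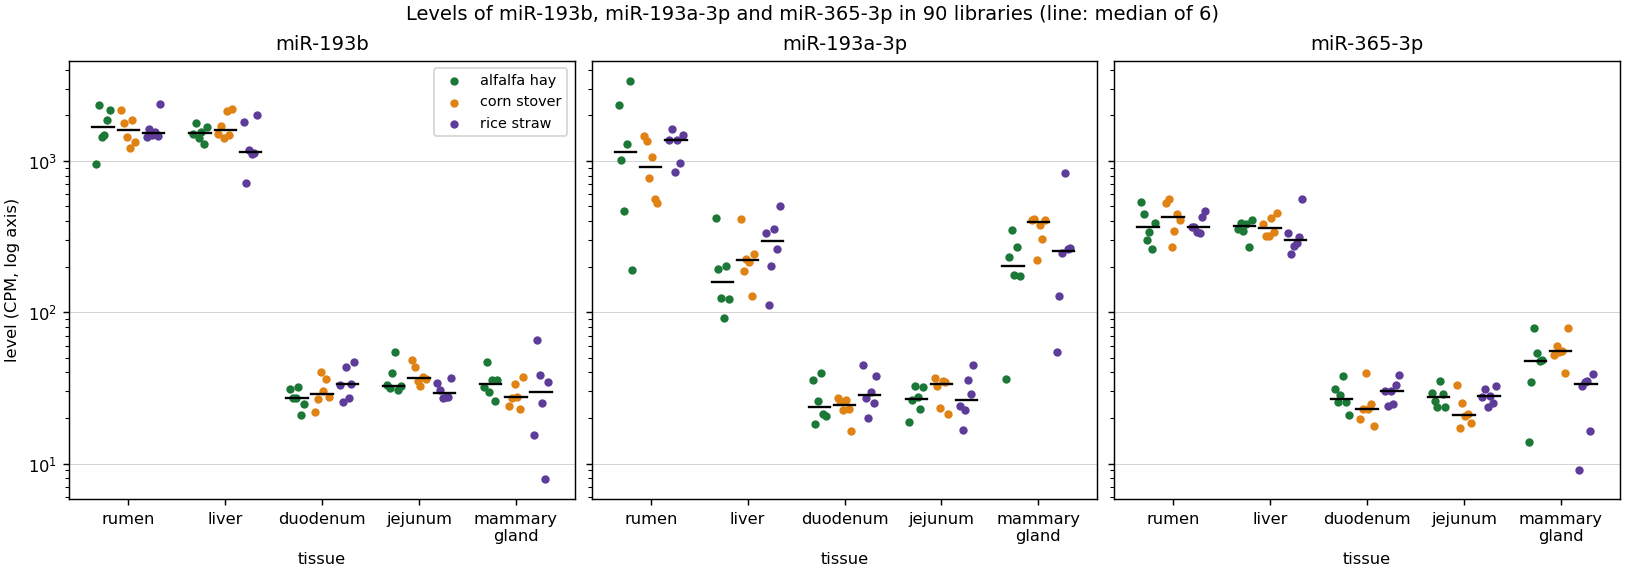
Level in CPM (log axis) of miR-193b, miR-193a-3p and miR-365-3p in the 90 libraries, by tissue and diet, with each point a library and each line the median of the 6 libraries of a diet. miR-193b and miR-365-3p are high in rumen and liver alone, whereas miR-193a-3p is at a median of 263 CPM in mammary gland, next to 209 CPM in liver.

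The makeup of the miR-193 pair, which shares a seed, therefore differed between tissues. miR-193a-3p made up 13.6% ± 5.70 (SD, n = 18) of the summed miR-193a-3p and miR-193b CPM in liver, from 5.58 to 24.3%. It made up 86.2% ± 11.3 in mammary gland, from 53.1 to 97.1%, and the liver and mammary ranges did not overlap. Rumen (40.0% ± 14.7), jejunum (44.4% ± 6.66) and duodenum (46.5% ± 7.49) lay between them by the mean and overlapped one another. In rumen the share spread most widely, from 7.97% to 71.0%. The pair together averaged 2894 CPM in rumen and 1775 CPM in liver. It averaged 318 CPM in mammary gland and least in the gut, at 64.1 CPM in jejunum and 58.0 CPM in duodenum.

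**Figure D2:**
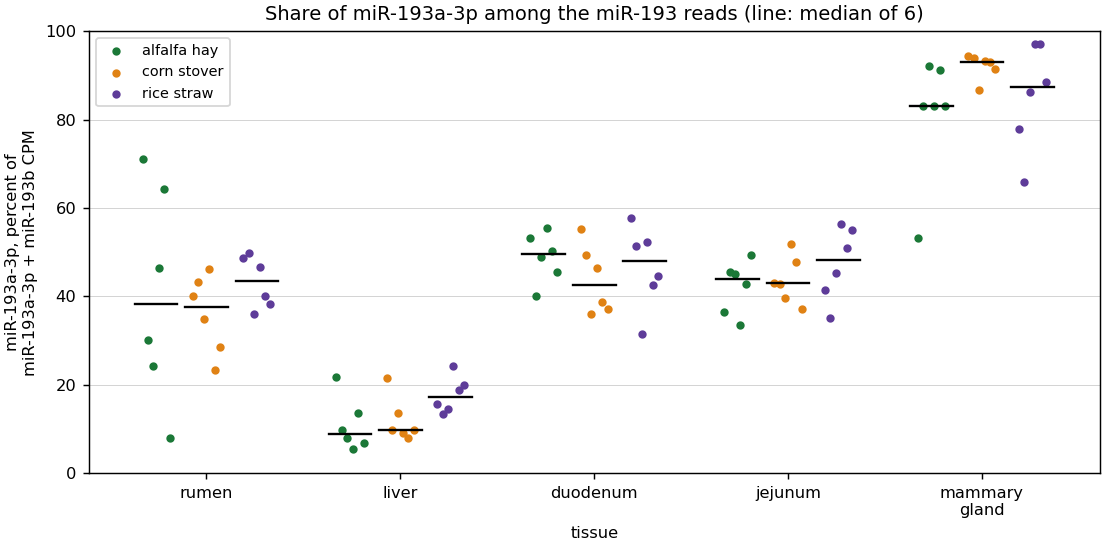
Share of miR-193a-3p in the summed CPM of miR-193a-3p and miR-193b (percent), by tissue and diet, with each point a library and each line the median of 6. Liver libraries lie between 5.58 and 24.3% and mammary libraries between 53.1 and 97.1%.

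The ratio of miR-365-3p to miR-193b within a library was alike in the tissues where both were high. Its log2 value was -2.07 ± 0.42 (SD, n = 18) in rumen and -2.09 ± 0.22 in liver, a linear ratio of 0.249 and 0.237. It was higher where both were scarce, at -0.44 ± 0.37 in jejunum, -0.16 ± 0.25 in duodenum and 0.40 ± 0.80 in mammary gland. The highest liver library, at -1.56, was below every duodenum, jejunum and mammary library. Rumen did not separate in this way. Its highest library, at -0.85, was above the lowest of jejunum (-1.33) and of mammary gland (-1.21). Counting error contributed a median standard error of 0.0377 on the log2 scale in rumen and 0.0412 in liver, and of 0.134 to 0.140 in the other 3 tissues. Reads of different miRNAs are captured with different efficiency, so these are ratios of read shares and can be compared between libraries but not read as ratios of molecules.

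The other arms of the hairpins were much rarer. miR-193a-5p, from the opposite strand of the miR-193a hairpin, ranged from 22.1 to 67.0 CPM in rumen (mean 37.1), from 3.20 to 49.1 in mammary gland (23.1) and from 8.71 to 17.0 in liver (12.9). Its mean was 5.04 CPM in duodenum and 4.73 CPM in jejunum, so rumen, mammary gland, liver and gut stood in the same order as for miR-193a-3p. The ratio of the 3p to the 5p arm was 36.9 in rumen on average, ranging from 2.82 to 110, 19.1 in liver and 14.2 in mammary gland. In duodenum it was 5.66 and in jejunum 6.60. miR-365-5p was listed only in rumen (1.18 to 9.68 CPM, mean 4.45) and liver (3.27 to 7.87 CPM, mean 5.80), the tissues with the most miR-365-3p.

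In rumen, liver and mammary gland the spread between cows was larger for miR-193a-3p than for miR-193b and miR-365-3p. In rumen its SD on the log2 scale was 0.94, the 20th largest of 236 miRNAs with a mean of at least 10 CPM, whose median SD was 0.41. The SD of miR-193b was 0.34 and that of miR-365-3p 0.32. In liver miR-193a-3p again ranked 20th, of 221 miRNAs, at 0.71 against a median of 0.35, with miR-193b at 0.39 and miR-365-3p at 0.29. In mammary gland, where the median SD was 0.85, it was 1.05. The SDs lay closer together in duodenum (0.38, against 0.31 for miR-193b and 0.32 for miR-365-3p) and jejunum (0.36, against 0.27 and 0.28). The rumen spread was widest in the alfalfa hay group, with a range of 189 to 3371 CPM in 6 libraries, against 530 to 1450 CPM on corn stover and 839 to 1630 CPM on rice straw. The lowest of these libraries, alfalfa hay replicate 6, held 762 reads of miR-193a-3p (exact 95% interval of 176 to 203 CPM). Its miR-193b was 2185 CPM, within the range of the rumen libraries.

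Within a tissue, miR-193b and miR-365-3p rose and fell together across cows in liver and duodenum. In liver Pearson's r of log2(CPM + 1) was 0.83 (n = 18, permutation p = 5e-05, adjusted p = 0.00075 over 15 relations), and Spearman's rho was 0.83 (adjusted permutation p = 0.0003). In duodenum r was 0.70 (permutation p = 0.00135, adjusted p = 0.0101) and rho was 0.70 (adjusted permutation p = 0.0130). Both kept a positive r without the 2 libraries farthest from the median of miR-193b, at 0.78 in liver (adjusted permutation p = 0.00495) and 0.66 in duodenum (0.0430). Within the diets, r in liver was 0.89 on alfalfa hay, 0.79 on corn stover and 0.85 on rice straw, and in duodenum 0.73, 0.81 and 0.86, each over 6 libraries and none past the threshold after adjustment (lowest adjusted exact permutation p = 0.125). Without the liver library high in miR-205, r in liver was 0.83. In duodenum the relation missed the threshold under upper-quartile scaling (r = 0.57, adjusted permutation p = 0.101).

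In the other tissues the relation of miR-193b with miR-365-3p did not pass. In rumen r was 0.19 (rho 0.25, adjusted permutation p = 0.668 for r), and within diets r was -0.28 on alfalfa hay, 0.73 on corn stover and 0.67 on rice straw. In jejunum r was 0.15 (rho 0.09, adjusted permutation p = 0.723), while r within the diets was 0.59, 0.43 and 0.75. Centred on the diet means it was 0.51 in jejunum (adjusted permutation p = 0.111), and without the 2 libraries farthest from the median it turned to -0.43 (adjusted permutation p = 0.2496). In mammary gland r was 0.43 (rho 0.11, adjusted permutation p = 0.232) and turned to -0.43 without the 4 shallow libraries. Whether r differed between tissues was not tested.

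**Figure D3:**
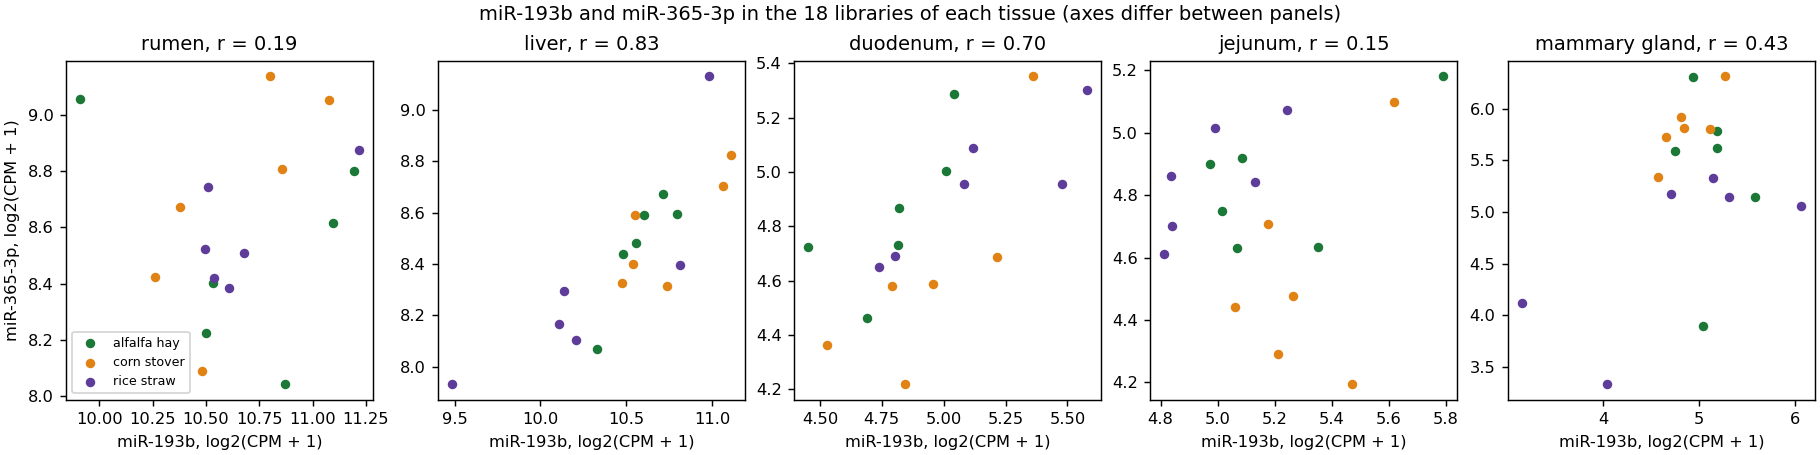
miR-193b (x axis) against miR-365-3p (y axis), both as log2(CPM + 1), with a panel per tissue, a point per library and axes that differ between panels. The points of liver (r = 0.83) and duodenum (r = 0.70) follow a line, and those of rumen (r = 0.19) and jejunum (r = 0.15) do not.

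miR-193a-3p was also set against the other pair. With miR-193b it gave r between -0.14 in rumen and 0.30 in jejunum, and none of the 5 tissues passed (lowest adjusted permutation p = 0.534). In mammary gland r was -0.05 and moved to -0.71 without the 4 shallow libraries, past the threshold (adjusted permutation p = 0.0182). It was -0.48 under TMM scaling (adjusted permutation p = 0.213), -0.50 under upper-quartile scaling (0.175) and 0.11 without the 2 libraries farthest from the median. With miR-365-3p it passed in mammary gland, at r = 0.69 (n = 18, permutation p = 0.00289, adjusted p = 0.0144) and rho = 0.59 (adjusted permutation p = 0.0599). By this r miR-193a-3p was only the 116th most alike to miR-365-3p among 245 miRNAs, and miR-365-3p the 74th most alike to miR-193a-3p. That relation did not hold without the 2 libraries farthest from the median (r = 0.21), under TMM scaling (r = 0.34, adjusted permutation p = 0.448) or under upper-quartile scaling (r = 0.16, adjusted p = 0.706). Without the 4 shallow libraries r was 0.58 (adjusted permutation p = 0.0929). Within diets it was 0.91, 0.37 and 0.67. miR-365-3p itself rose with the number of mapped reads in mammary gland (r = 0.71, adjusted permutation p = 0.0238 over 15 relations; rho = 0.33, adjusted p = 0.544), and its r was 0.51 without the 2 farthest libraries. In duodenum r of miR-193a-3p with miR-365-3p was 0.51 (adjusted permutation p = 0.112).

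The 5p arm of the miR-193a hairpin gave another picture, and these relations were added after its values had been seen. miR-365-3p rose with miR-193a-5p in rumen at r = 0.67 (rho 0.68, adjusted permutation p = 0.00833 over 10 relations), in duodenum at 0.62 (rho 0.61, adjusted p = 0.0144) and in jejunum at 0.76 (rho 0.72, adjusted p = 0.00220). In these 3 tissues r remained at 0.64, 0.56 and 0.69 without the 2 farthest libraries. In liver r was 0.33 (adjusted permutation p = 0.269). In mammary gland r was 0.62 (adjusted permutation p = 0.0156), rho was 0.46, and r dropped to 0.06 without the 2 farthest libraries. There miR-193a-5p was only the 137th most alike to miR-365-3p among 245 miRNAs. In duodenum r dropped to 0.40 under TMM scaling and to 0.30 under upper-quartile scaling. miR-193a-3p and its own 5p arm gave r = -0.17 in rumen, 0.49 in duodenum, 0.06 in jejunum and 0.19 in liver, none past the threshold. In mammary gland they gave r = 0.75 (adjusted permutation p = 0.00410), with rho of 0.44, and r was 0.31 without the 2 farthest libraries.

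Over all 90 libraries, miR-193b and miR-365-3p were each the most alike to the other among 237 miRNAs listed in every tissue with a mean of at least 10 CPM, at r = 0.97. This value takes in the tissue levels for which they were chosen and is a description. miR-328 came next for both (r = 0.84 with each), followed by miR-92a for miR-193b (0.81) and miR-331 for miR-365-3p (0.81). miR-328 averaged 33.2 CPM in rumen and 32.6 in liver, and 9.90 to 13.1 in the other 3 tissues. For miR-193a-3p the most alike were miR-193a-5p (0.88), miR-210, a miRNA induced by low oxygen (0.88), and miR-3431 (0.85). miR-210 averaged 736 CPM in rumen and 41.3 to 93.3 CPM elsewhere.

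Averaged over the 5 within-tissue values, which leave the tissue levels out, the order changed. miR-455-3p came first for miR-193b (mean r = 0.49), then miR-365-3p (0.46) and miR-652 (0.37). For miR-365-3p the first were miR-455-3p (0.64), miR-29b (0.63) and miR-145 (0.61), and miR-193b stood 15th. For miR-193a-3p they were miR-101 (0.68), miR-339b (0.66) and miR-331 (0.63), with miR-193b 155th at 0.12. In liver alone miR-193b and miR-365-3p were each the most alike to the other among 220 miRNAs. In rumen miR-193a-5p was the most alike to miR-365-3p among 235 miRNAs, and miR-193b stood 86th. All points of a tissue share the CPM scale, which adds a common part to any such r.

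Rumen and liver libraries with the same diet and title number, which the labels do not state to be 1 cow, were set side by side. miR-193b gave r = 0.06 (n = 18, adjusted permutation p = 0.811 over 6 relations), miR-193a-3p 0.43 (adjusted p = 0.217) and miR-365-3p 0.37 (adjusted p = 0.254). Between duodenum and jejunum r was -0.11, 0.17 and 0.44, and none passed.

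The diet test asked whether forage changed the level of a miRNA within a tissue. None of the 15 tests of the 3 miRNAs in 5 tissues passed (limma F test, adjusted p under 0.05), and 1, miR-365-3p in mammary gland, had an unadjusted p under 0.05 (limma adjusted p = 0.144). Without the shallowest mammary library it passed (limma adjusted p = 0.0350). With edgeR on the recovered reads the count was also 0 of 15. Over all miRNAs the same test called 1.49% of 335 in rumen, 0% of 336 in duodenum, 23.8% of 336 in jejunum, 0% of 326 in liver and 3.72% of 323 in mammary gland, where 12 miRNAs were called, and 83 without the shallowest library. At an unadjusted p under 0.05 there were 36 miRNAs in duodenum and 17 in liver, and edgeR called 0 in either tissue. Between pairs of diets 1 of 45 differences of the 3 miRNAs passed, in mammary gland. Over all miRNAs the pairs called 2.69% for rice straw against alfalfa hay in rumen, 22% for corn stover against alfalfa hay and 28.6% for rice straw against corn stover in jejunum, 26.6% for rice straw against corn stover in mammary gland, and 0% in the other 11 pairs.

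In rumen and liver the diet groups overlapped for all 3 miRNAs. miR-193b in rumen had medians of 1676 CPM on alfalfa hay (961 to 2340), 1606 on corn stover (1225 to 2159) and 1523 on rice straw (1442 to 2380). Its log2 differences between diets lay between -0.04 and 0.03, with 95% confidence intervals within -0.47 and 0.46. Those of miR-365-3p in rumen lay between -0.12 and 0.17, with intervals within -0.53 and 0.58. For miR-193a-3p they were wider, from -0.16 to 0.50 with intervals within -1.21 and 1.55.

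In liver the lowest median of miR-193b was on rice straw, at 1153 CPM (717 to 2022), against 1602 on corn stover (1419 to 2208) and 1528 on alfalfa hay (1287 to 1771). The rice straw minus corn stover difference was -0.46 (SE 0.20, interval -0.87 to -0.04) and did not pass after adjustment (limma, adjusted p = 0.560), in a comparison that called 0% of miRNAs. miR-193a-3p stood the other way, with medians of 297 CPM on rice straw (112 to 502), 220 on corn stover (128 to 411) and 159 on alfalfa hay (91.8 to 418). Its largest difference, rice straw minus alfalfa hay, was 0.65 (SE 0.36, interval -0.10 to 1.41, limma adjusted p = 0.953). The miR-193a-3p share of the pair in liver was 17.8% ± 4.03 on rice straw and 10.9% ± 6.00 on alfalfa hay (n = 6 each), a difference of 6.88 points that did not pass over 15 comparisons (exact permutation p = 0.0476, adjusted p = 0.314). miR-365-3p differed in liver by -0.19 to 0.05 between diets, with intervals within -0.55 and 0.42.

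**Figure D4:**
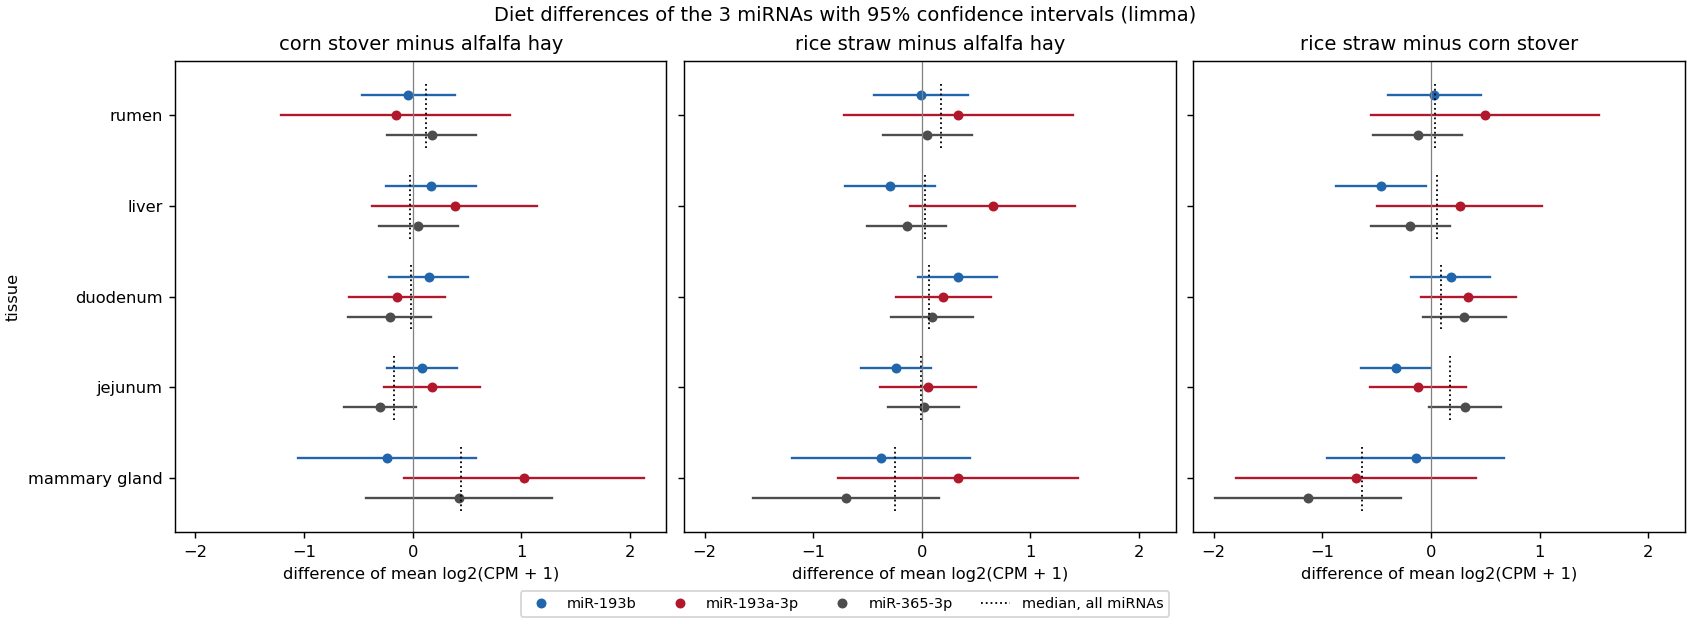
Differences in mean log2(CPM + 1) between pairs of diets (x axis) in each tissue (y axis) for the 3 miRNAs, with points for the limma estimate, bars for its 95% confidence interval and dotted lines for the median difference over all miRNAs. miR-365-3p on rice straw minus corn stover in mammary gland, at -1.13, is the 1 difference that passed.

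In mammary gland miR-365-3p was lower on rice straw than on corn stover. It ranged from 9.07 to 39.2 CPM on rice straw (median 33.4) and from 39.6 to 78.5 CPM on corn stover (median 55.1), while alfalfa hay spanned both, from 13.9 to 78.4 CPM (median 47.7). The rice straw and corn stover groups did not overlap, and the share of all miRNAs of which this holds is not given here. The log2 difference was -1.13 (SE 0.41, interval -1.98 to -0.27, limma adjusted p = 0.0484), in a comparison that called 26.6% of 323 miRNAs. The median difference over all miRNAs in that comparison was -0.63, and miR-365-3p was the 80th lowest of 323. It was -0.41 under TMM scaling (adjusted p = 0.274), -0.23 under upper-quartile scaling (0.539), -0.37 in edgeR (0.280) and -0.64 without the 4 shallow libraries (0.0759), of which 3 were on rice straw. In those 4 libraries miR-365-3p was at 9.07 to 35.0 CPM, against 32.4 to 78.5 CPM in the other 14. miR-126-3p, a marker of endothelium and the miRNA closest to miR-365-3p within mammary gland (r = 0.95), also differed, by -1.63 (SE 0.45, limma adjusted p = 0.0209), and by -0.88 under TMM scaling and -0.70 under upper-quartile scaling. The summed miR-126 arms were at 10201 to 43585 CPM on rice straw and 29614 to 44086 CPM on corn stover, and the summed miR-200 family was at 10598 to 45143 and 38600 to 58217 CPM. The summed smooth muscle miRNAs miR-143 and miR-145 separated the groups the other way. The sum was at 130010 to 228169 CPM on rice straw and 70758 to 127289 CPM on corn stover. The gap was narrow, and the share of all miRNAs that separate these groups is not given here. Over the 18 mammary libraries miR-143 averaged 146172 CPM and miR-145 1226 CPM. The sum is therefore mostly miR-143 and does not show how miR-145 stood. The part of these cell types and of depth in the difference was not tested.

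miR-193a-3p in mammary gland was highest on corn stover by the median, at 392 CPM (221 to 414), against 253 on rice straw (54.4 to 832) and 203 on alfalfa hay (36.3 to 349). Corn stover minus alfalfa hay was 1.02 (SE 0.54, interval -0.08 to 2.13, limma adjusted p = 0.425) and the groups overlapped. miR-193b there had medians of 33.7 CPM on alfalfa hay, 27.3 on corn stover and 29.8 on rice straw.

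In duodenum no difference of the 3 miRNAs between diets exceeded 0.34 on the log2 scale, and the closest to passing, miR-365-3p on rice straw minus corn stover, was 0.31 (SE 0.18, limma adjusted p = 0.449).

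In jejunum, where the diet test called 23.8% of all miRNAs, miR-193b and miR-365-3p stood in opposite directions. miR-193b was at a lower median on rice straw (27.1 to 36.9 CPM, median 29.2) than on corn stover (32.3 to 48.1 CPM, median 36.8), by -0.33 (SE 0.15, interval -0.65 to -0.00, limma adjusted p = 0.111). miR-365-3p was at 23.5 to 32.7 CPM on rice straw (median 27.9) and 17.3 to 33.2 CPM on corn stover (median 21.0), a difference of 0.32 (SE 0.16, interval -0.01 to 0.65, limma adjusted p = 0.131). Both pairs of groups overlapped and neither difference passed, while the median difference over all miRNAs was 0.18 and 28.6% were called. Under TMM scaling the miR-193b difference was -0.51 (limma adjusted p = 0.0293) and in edgeR -0.55 (adjusted p = 0.0227), both past the threshold.

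The ratio of miR-365-3p to miR-193b, which does not depend on scaling, separated these diets in jejunum. On rice straw its log2 value ranged from -0.30 to 0.03 (mean -0.13 ± 0.13, SD, n = 6) and on corn stover from -1.33 to -0.49 (-0.79 ± 0.32, n = 6). The groups did not overlap, and the linear ratio was 0.918 ± 0.0832 on rice straw against 0.588 ± 0.119 on corn stover. How many ratios of other pairs of miRNAs separate these groups is not given here, in a comparison that called 28.6% of 336 miRNAs. The difference of 0.66 passed over 15 comparisons (two-sided exact permutation p = 0.00216, the smallest that 6 against 6 allows, adjusted p = 0.0325). Alfalfa hay lay between, at -0.39 ± 0.26. In the jejunum the summed miR-126 arms, markers of endothelium, also separated these diets, at 8000 to 17708 CPM on corn stover and 19516 to 29441 CPM on rice straw. The summed smooth muscle miRNAs miR-143 and miR-145 were at 184453 to 296908 and 151920 to 237701 CPM, and the summed leucocyte miRNAs at 18568 to 29324 and 20942 to 31272 CPM. The miR-126 sum is mostly miR-126-5p, which averaged 15660 CPM over the 18 jejunum libraries, against 4372 CPM for miR-126-3p. It does not show how miR-126-3p stood. The share of all miRNAs that separate these diets as fully is not given here. The part of these cell types in the ratio was not tested. In the other 4 tissues no ratio passed, the closest being mammary gland, where rice straw was 1.01 below corn stover (exact permutation p = 0.0108, adjusted p = 0.0812). Of the 15 comparisons of the miR-193a-3p share none passed (lowest adjusted exact permutation p = 0.292).

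**Figure D5:**
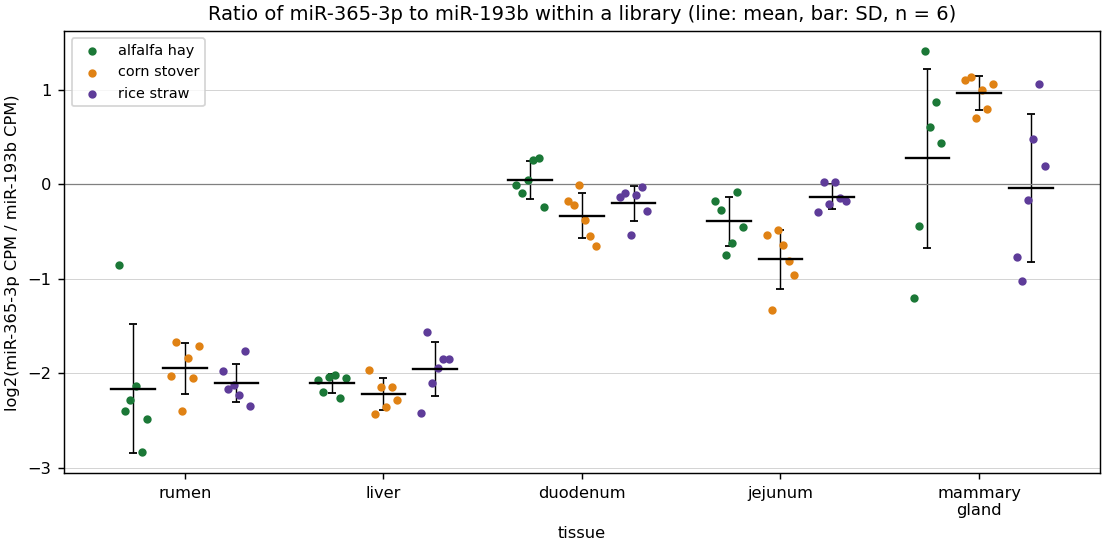
Log2 ratio of miR-365-3p to miR-193b within each library, by tissue and diet, with points for libraries and lines and bars for the mean and SD of 6. In jejunum the 6 rice straw libraries lie between -0.30 and 0.03 and the 6 corn stover libraries between -1.33 and -0.49.

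Whether the diet differences themselves varied between tissues was tested in 1 fit of the 289 miRNAs listed in all tissues, where 45.7% passed. miR-365-3p was among them (limma interaction F test, adjusted p = 0.0117), and miR-193b (0.486) and miR-193a-3p (0.543) were not. The same cows gave all 5 tissues, and the fit took the libraries as independent. For miR-365-3p the call was lost without the mammary gland (adjusted p = 0.382), without its 4 shallow libraries (0.0762) and under TMM (0.438) and upper-quartile scaling (0.556). miR-193b gained a call under upper-quartile scaling (limma adjusted p = 0.0194) and without the 4 shallow libraries (0.0443).

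Between the parts of the small intestine, a contrast that had no role in choosing them, the 3 miRNAs did not pass, where 27.2% of 331 miRNAs did. Jejunum minus duodenum was 0.20 for miR-193b (SE 0.10, limma adjusted p = 0.139), 0.08 for miR-193a-3p (SE 0.13, 0.654) and -0.07 for miR-365-3p (SE 0.10, 0.654). This fit, too, took libraries from shared cows as independent.

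The other miRNAs with a known role in brown or beige fat, a list of 12 of which 11 were tested in all tissues but liver (10), were counted beside all miRNAs. The diet F test called 1 of 11 in rumen (1.49% of all miRNAs), miR-155, which restrains brown fat differentiation, and 1 of 11 in jejunum (23.8% of all), miR-196a, which promotes the browning of white fat. It called none in the other 3 tissues. miR-155 was higher on rice straw than on alfalfa hay in rumen by 1.18 (SE 0.26, limma adjusted p = 0.0221) and than on corn stover in jejunum by 0.38 (SE 0.12, limma adjusted p = 0.0277), the latter 0.18 under TMM scaling. In jejunum miR-196a was higher on corn stover than on alfalfa hay by 2.45 (SE 0.68, limma adjusted p = 0.0124), and rice straw minus corn stover was -2.41 (SE 0.68, limma adjusted p = 0.0140). On rice straw minus corn stover in mammary gland 4 of 11 were lower, where 26.6% of all miRNAs were called in either direction, with a list median of -0.71 beside -0.63 over all miRNAs. Under TMM and upper-quartile scaling miR-106b moved from -1.998 to -1.26 and -1.08, miR-133a from -1.51 to -0.78 and -0.60 and miR-27a-3p from -1.44 to -0.69 and -0.51. miR-27b turned from -0.71 to 0.03 and 0.21. In jejunum minus duodenum 3 of 11 were higher, where 27.2% of all miRNAs were called in either direction: miR-196a by 2.64 (SE 0.42), miR-133a by 0.41 (limma adjusted p = 0.00771) and miR-455-3p by 0.29 (limma adjusted p = 0.0167). The list median there was 0.09, beside 0.03 over all miRNAs.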

How the data were processed

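The 90 small RNA libraries were grouped by the tissue and diet of their labels. The authors removed low-quality reads with CASAVA 1.8, used sRNAbench to align the rest to the bovine precursors of miRBase, and deposited a CPM value for each miRNA. The study's paper speaks of raw counts, yet whole numbers were absent and each library summed to just under the CPM total, so the unit was taken as CPM. In each library 100% of values were whole multiples of a step (tolerance 0.01), taken as 1 read, which gave the mapped reads. Intervals cover counting error only. No pair of libraries was identical. Each tissue listed only miRNAs above 1 CPM in at least 50% of its libraries. The genome build of the files is not given in the sources used here, so no coordinates are printed, and gene neighbours were read from RefSeq ARS-UCD2.0.

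Diets, jejunum against duodenum, and the diet by tissue interaction were fitted with limma 3.58.1 in R 4.3.3 (eBayes with intensity trend) on log2(CPM + 1) over all miRNAs above 1 CPM in over 50% of samples, adjusted by Benjamini-Hochberg and called at 0.05. The differences fitted with limma are on that scale. Fold values between tissues are ratios of mean CPM. The ratio of miR-365-3p to miR-193b was taken as log2 without a pseudocount, and differences of shares are in percentage points. Correlations used 100000 permutations, and ratios and shares the exact permutation test over 6 against 6 libraries, all two-sided (Python 3.11.15, numpy 2.4.6, pandas 2.3.3, scipy 1.17.1, statsmodels 0.14.6, with figures from matplotlib 3.10.9). Alternatives were pseudocounts of 0.1 and 5 CPM, TMM and upper-quartile scaling, other low-value filters, edgeR 4.0.16 on the recovered reads, a replicate block and leaving out libraries. The fits and permutation tests were tested on simulated data.

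The miRNAs named are the 3, the other arms of their hairpins, the 3 most alike to each by r over all 90 libraries and by mean within-tissue r (listed in all tissues, mean of at least 10 CPM), list members that passed a test, and markers that moved with a result. The 3 miRNAs and all lists were chosen with earlier results of these data known. By the study's methods the libraries of a tissue came from separate cows, and the same cows gave all 5 tissues.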

Additional observations from a re-analysis of the deposited data

Results flagged for a closer look

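Dixon's test at 95% flagged the highest library in 5 of 45 groups of 6 libraries (3 miRNAs, 5 tissues, 3 diets). The test was run on CPM and not on log2 values. Its chance rate of about 1 in 20 groups holds for normally spread values, so the 5 groups cannot be set against that rate. miR-193b reached 2380 CPM in rumen on rice straw (replicate 6), with the next library at 1635 CPM. miR-193a-3p reached 418 CPM in liver on alfalfa hay (replicate 1), with the next at 202 CPM. It reached 832 CPM in mammary gland on rice straw (replicate 4, a library of 2624975 reads), with the next at 264 CPM. miR-365-3p reached 39.8 CPM in duodenum on corn stover (replicate 3), with the next at 24.8 CPM. In liver on rice straw (replicate 6) it reached 560 CPM (559.7), with the next at 336 CPM.

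The diet differences of miR-365-3p varied between tissues (limma interaction F test, adjusted p = 0.0117), and the values without the mammary gland and under other scalings are given with the processing.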

How the results depend on the processing

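In mammary gland 4 libraries had at most 2624975 reads, and levels of the 3 miRNAs rested on as few as 12 reads. The median depth there (5570152.5 reads) was still above that of rumen (4001233) and liver (4427653). The cause of each change below was not tested. Upper-quartile scaling moved the liver means to 2084 for miR-193b and 482 for miR-365-3p.

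The correlation of miR-193b with miR-365-3p turned to -0.28 in rumen within alfalfa hay and to -0.43 in jejunum without the 2 farthest libraries. In mammary gland it turned to -0.0758 under TMM scaling, -0.18 within alfalfa hay and -0.43 without the shallow libraries. It lost the call in duodenum under upper-quartile scaling (0.57) and within alfalfa hay (0.73), corn stover (0.81) and rice straw (0.86), and in liver within the same diets (0.89, 0.79 and 0.85), where 6 libraries remained. That of miR-193a-3p with miR-365-3p turned in rumen (-0.0448 under TMM, -0.0875 under upper-quartile scaling, -0.0388 within alfalfa hay), in jejunum (0.0699 centred on diet, 0.26 within corn stover, 0.24 within rice straw) and in liver (-0.30 within alfalfa hay). In mammary gland it lost the call under TMM (0.34) and upper-quartile scaling (0.16), without the 2 farthest libraries (0.21), within alfalfa hay (0.91), corn stover (0.37) and rice straw (0.67), and without the shallow libraries (0.58). That of miR-193b with miR-193a-3p turned in rumen (0.40 within corn stover, 0.46 within rice straw), duodenum (-0.15 under upper-quartile scaling, -0.22 within corn stover, -0.0128 within rice straw), liver (-0.15 within alfalfa hay) and mammary gland (0.11 without the 2 farthest, 0.0148 within rice straw), and without the shallow mammary libraries it passed at -0.71. Across tissues, miR-193b turned to -0.0522 between rumen and liver without the 2 farthest and to 0.0922 between duodenum and jejunum centred on diet.

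The number of miRNAs called by diet in rumen, 5 as reported, was 8 with a mean of at least 10 CPM, 3 with the replicate block and 3 without the shallowest library. In liver it was 1 without the library high in miR-205. In mammary gland, 12 as reported, it was 0 and 19 with pseudocounts of 0.1 and 5 CPM, 55 with the replicate block, 26 in edgeR, 83 without the shallowest library and 61 without the 4 shallow ones. Without the shallowest library miR-365-3p passed the mammary F test (limma adjusted p = 0.0350). Its rice straw minus corn stover difference there lost the call with a pseudocount of 0.1 CPM (-1.16), TMM (-0.41), upper-quartile scaling (-0.23), edgeR (-0.37) and without the shallow libraries (-0.64). That of miR-193b in jejunum passed under TMM (-0.51) and edgeR (-0.55). miR-193b turned sign in rumen for corn stover minus alfalfa hay (0.0114 without the shallowest library) and in mammary gland for rice straw minus alfalfa hay (0.00669 in edgeR, 0.38 without the shallow libraries). The mammary miR-193a-3p share for rice straw minus alfalfa hay, 4.47 points, turned to -1.10 and -6.31 without the shallowest and the 4 shallow libraries. In the interaction 58 miRNAs passed without mammary gland. miR-193b passed under upper-quartile scaling (limma adjusted p = 0.0194) and without the shallow libraries (0.0443), and miR-365-3p lost its call under TMM (0.438), upper-quartile scaling (0.556), without the shallow libraries (0.0762) and without mammary gland (0.382).

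Samples with the same number deviated together only weakly: same-numbered duodenum and jejunum samples of a diet gave a mean r of 0.197 (-0.334 to 0.580) and other tissue pairs 0.0157 to 0.108, and same-numbered samples of different diets -0.0401 to 0.126. The labels do not say that a number marks a cow, so the main fits did not use the numbers as pairs. The same cows nevertheless gave all 5 tissues. The numbers were used as pairs only in the correlations across tissues and in the replicate block of the fits across tissues. The replicate block changed no call of the 3 miRNAs, also in the fit of jejunum against duodenum (90 miRNAs called, 82 with the block) and in the interaction (132 and 135).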
